A study of Mus musculus with 17 samples.

Results

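The podocyte and slit diaphragm genes Nphs1, Podxl, Wt1, Synpo, Cd2ap, Actn4, Ptpro and Vegfa were taken by symbol from the gene table of whole mouse kidneys. They were 8 of 22558 genes, each symbol had 1 entry, and all 8 passed the filter on low counts in every comparison. Podocytes are the epithelial cells that wrap the glomerular capillaries. Their foot processes are joined by the slit diaphragm, a sheet of nephrin and related proteins that is anchored through adaptors such as CD2AP to an actin skeleton, and its loss lets albumin pass into the urine. Podocytes also make VEGF-A, which maintains the glomerular endothelium on the other side of the basement membrane.

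RNA was sequenced from 17 male mice, 1 library per mouse. The Ctrl group held 5 wild-type C57BL/6 mice and the Case group 6 db/db mice (BKS.Cg-Dock7m +/+ Leprdb/J), which lack a working leptin receptor and become obese and diabetic. The Dapa group held 6 mice of the same db/db strain given 1 mg/kg of dapagliflozin daily, a drug that blocks the renal glucose carrier SGLT2. Treatment began at 8 weeks of age and lasted 6 weeks, and the Ctrl and Case mice received saline by gavage. The db mutation and the strain background (C57BL/6 or BKS) cannot be told apart between Ctrl and the db/db groups. The libraries held 13039535 to 17779635 counts, with 17.9% to 27.6% on mitochondrial genes (median 19.3% in Ctrl, 22.4% in Case and 23.9% in Dapa). The library of Case replicate 3 stood apart by its macrophage markers, whose FPKM summed to 192, whereas the median of Case was 40.1. In whole kidney, fewer podocytes and less RNA per podocyte cannot be told apart.

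Levels are given as FPKM, the deposited values of read counts scaled by gene length and library total. By mean FPKM in Ctrl, the order was Podxl (38.9 ± 4.9, SD, n = 5), Actn4 (38.1 ± 2.7), Cd2ap (29.0 ± 1.7), Vegfa (17.6 ± 0.88), Nphs1 (4.36 ± 0.40), Ptpro (1.80 ± 0.17), Synpo (0.94 ± 0.34) and Wt1 (0.65 ± 0.10). Podxl and Actn4 did not differ beyond their spread, nor did Synpo and Wt1. The lowest count of any member in any mouse was 63, for Wt1. A list of 18 other podocyte markers summed to 187 to 213 FPKM in Ctrl, so podocyte RNA was detected in these whole kidneys. Podxl is also made by endothelium, and Cd2ap, Actn4 and Vegfa are made by tubular cells too, so that their levels here do not stand for podocytes alone.

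**Figure D1:**
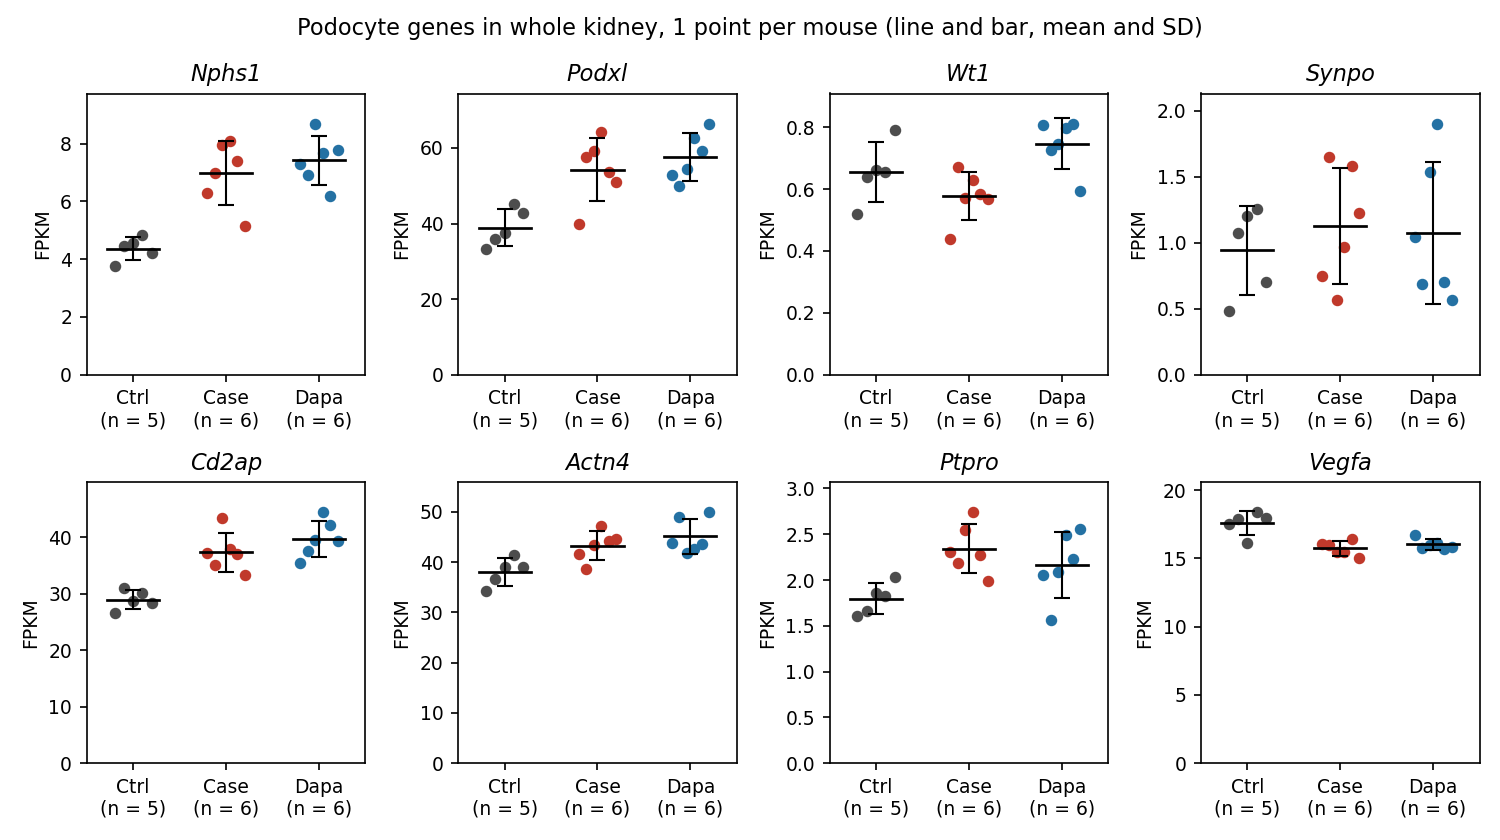
FPKM of the 8 podocyte genes in each mouse (vertical axes start at 0), with group means and SDs. For Nphs1 and Cd2ap all 12 db/db mice lie above the 5 Ctrl mice, and Synpo is spread widely within every group.

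To see whether podocyte genes differed in db/db kidneys, Case was compared with Ctrl. Nphs1, Podxl and Cd2ap were higher in Case and Vegfa was lower, so that 4 of the 8 genes passed the test (a q under 0.05 by the quasi-likelihood test of edgeR, with the Benjamini-Hochberg adjustment made over all genes tested). Of all 14582 genes tested, 1895 passed, which was 13%, with 888 higher (6.09%) and 1007 lower (6.91%). With limma on log2(FPKM + 1), which uses no TMM scaling, the split over all genes was 1044 higher and 723 lower. The median log2 fold change was 0.24 over the 8 genes and 0.03 over all genes. All 4 changes were smaller than 2-fold. Only that of Nphs1 kept its q under 0.05 with each of the 11 mice left out in turn.

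Nphs1 encodes nephrin, the transmembrane protein that spans the slit between foot processes. Its FPKM in the 5 Ctrl mice were 3.77, 4.46, 4.57, 4.82 and 4.20. In Case they ran from 5.16 to 8.09 with a median of 7.18, so that all 6 Case mice lay above all 5 Ctrl mice. Among all genes tested, 8.43% had groups without overlap in either direction. Its log2 fold change was 0.59 (SE 0.10, 95% confidence interval 0.37 to 0.81), with a q of 0.0036 from edgeR. With each mouse left out the log2 fold change was 0.55 to 0.65, and q was at most 0.0147. Nphs1 lies on chromosome 7 (30458315 to 30487223, mm10), Cd2ap on chromosome 17 (42792951 to 42876424), Podxl on chromosome 6 (31519488 to 31563981) and Vegfa on chromosome 17 (46016993 to 46032377). Exons of genes on the opposite strand, Nphs1os and Rps12-ps4, share 11.8% of the exonic bases of Nphs1 in GENCODE M21, and whether the counting used strand is not given in the sources used here.

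Cd2ap encodes an adaptor that binds nephrin from inside the foot process. The Ctrl mice had FPKM of 26.6, 31.0, 28.8, 30.1 and 28.3, and the Case mice 33.3 to 43.5 with a median of 37.1. The groups did not overlap, as for 8.43% of all genes tested. This was a log2 fold change of 0.28 (SE 0.07, q = 0.0232 from edgeR). Without Ctrl replicate 1, 3 or 5 its q was 0.0616, 0.0613 and 0.0752 in that order, and it was 0.0674 when the fit held a term for 7 libraries that may form a batch, those in which FPKM and counts of 3 other genes did not match.

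Podxl encodes podocalyxin, the charged sialomucin of the apical foot process surface that keeps the slits open. Ctrl had FPKM of 33.3, 35.9, 37.4, 45.1 and 42.7, and Case 40.0 to 64.4 with a median of 55.5. Of the 6 Case mice, 5 lay above all Ctrl mice, and Case replicate 1 lay within their range. Podxl had a log2 fold change of 0.40 (SE 0.11, q = 0.0368 from edgeR). The call was kept without Ctrl replicate 4 or Case replicate 1 and lost without any other single mouse, with q between 0.0519 and 0.0928. With the term for the 7 libraries the log2 fold change was 0.30 and q was 0.16.

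Ptpro encodes GLEPP1, a receptor tyrosine phosphatase that also sits on the apical surface. Ctrl had FPKM of 1.61, 1.66, 1.86, 1.82 and 2.03, and Case 1.98 to 2.74 with a median of 2.29. Here too 5 of 6 Case mice lay above all Ctrl mice. Its log2 fold change of 0.30 (SE 0.09) had a q of 0.0514 from edgeR and did not pass. It passed with DESeq2 (q = 0.028) and with upper quartile scaling (q = 0.0306), and by a smaller margin with at least 10 counts in every sample (q = 0.0449) and without mitochondrial genes (q = 0.0498).

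Vegfa encodes the growth factor VEGF-A, a ligand of the receptors KDR and FLT1. Ctrl had FPKM of 17.5, 17.9, 16.1, 18.4 and 18.0, and Case 15.0 to 16.4 with a median of 15.7. In Case, 5 of 6 mice lay below all Ctrl mice, while Ctrl replicate 3 lay within the Case range. Vegfa had a log2 fold change of -0.24 (SE 0.07, q = 0.0389 from edgeR). The call was kept without Case replicate 1, 3 or 5 and lost without any other single mouse, with q between 0.0522 and 0.0913. On the FPKM scale, limma on log2(FPKM + 1) gave -0.15 and a q of 0.103, and upper quartile scaling gave -0.20 and a q of 0.0719.

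The remaining genes did not pass. Synpo encodes synaptopodin, an actin-binding protein of the foot process, and Actn4 encodes alpha-actinin-4, which crosslinks actin filaments. The log2 fold change of Actn4 was 0.11 (95% confidence interval -0.07 to 0.29, q = 0.411 from edgeR). Its FPKM were 34.2, 36.7, 38.9, 41.4 and 39.1 in Ctrl and 38.7 to 47.2 in Case with a median of 43.8. That of Synpo was 0.19 with a much wider interval, -0.47 to 0.84 (q = 0.726 from edgeR). Wt1, a transcription factor that podocytes need to keep their identity, had FPKM of 0.52, 0.64, 0.66, 0.66 and 0.79 in Ctrl and of 0.44 to 0.67 in Case with a median of 0.58. Its log2 fold change was -0.26 (interval -0.57 to 0.06, q = 0.269 from edgeR).

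**Figure D2:**
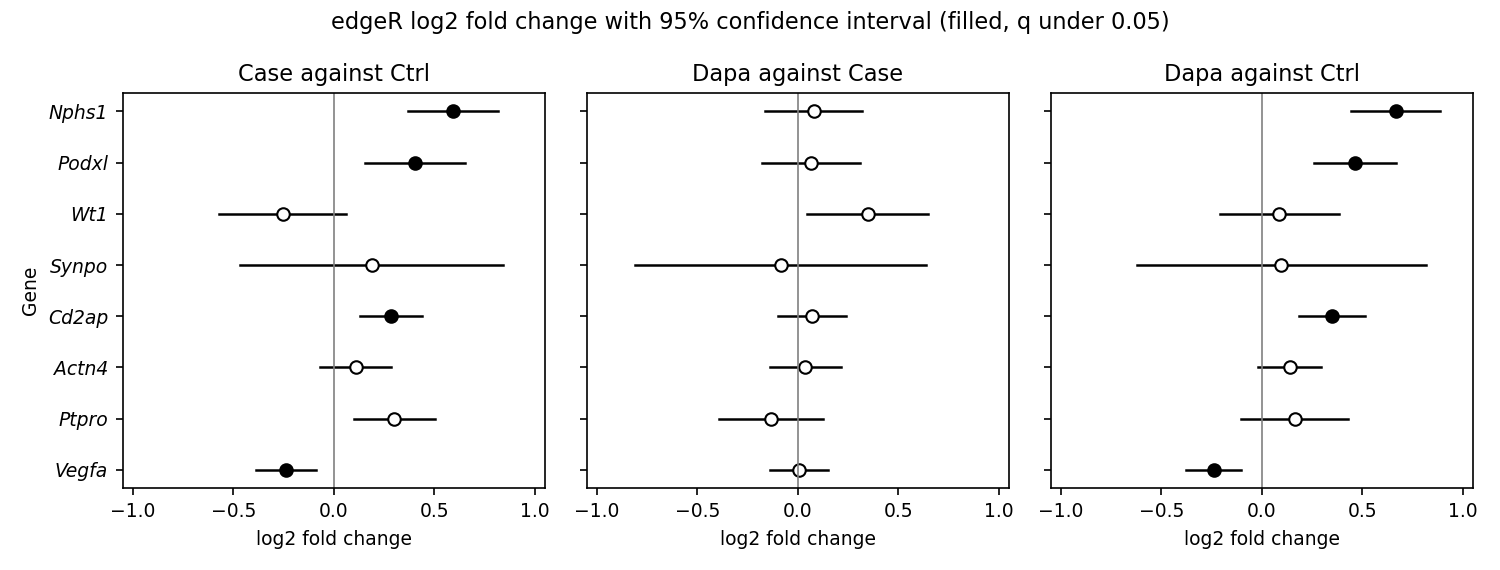
Log2 fold changes from edgeR with 95% confidence intervals for the 8 podocyte genes in the 3 comparisons (filled points have a q under 0.05). Nphs1, Podxl, Cd2ap and Vegfa are filled in both comparisons with Ctrl, and no point is filled in Dapa against Case.

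**Figure D3:**
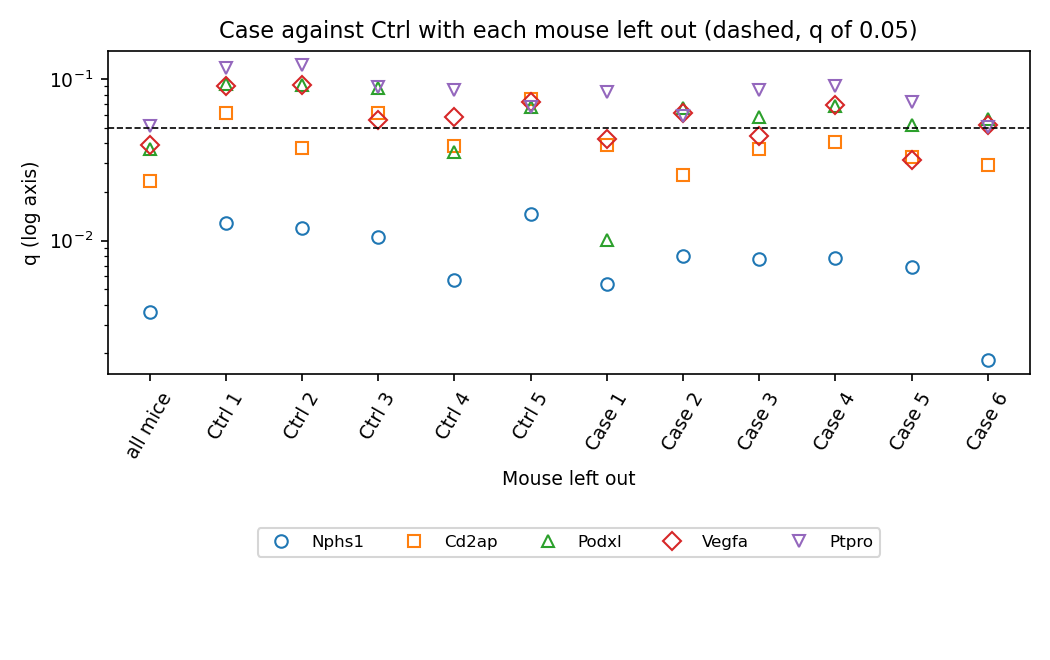
The q of 5 podocyte genes in Case against Ctrl (log axis) with all mice and with each of 11 mice left out. Nphs1 stays below the dashed line at 0.05 throughout, whereas Cd2ap, Podxl and Vegfa cross it for some mice and Ptpro is above it throughout.

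Synpo had the widest spread of the 8 genes. In Ctrl its FPKM were 0.48, 1.07, 1.21, 1.26 and 0.70, in Case they ran from 0.57 to 1.65 with a median of 1.10, and in Dapa from 0.57 to 1.90 with a median of 0.87. Each group thus held mice with low and mice with high levels. The within-group SD of its log2 CPM (counts scaled to a common library total by TMM) was 0.65, higher than that of 87.5% of all genes. That of Vegfa was 0.06 and that of Cd2ap 0.09, lower than in nearly all other genes (percentiles 0.1 and 1.3). Synpo was counted at 240 to 873 reads per mouse.

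To see whether dapagliflozin changed these genes in db/db mice, Dapa was compared with Case. None of the 8 genes passed, and of 14573 genes tested edgeR's quasi-likelihood test called 0 (0%), with 1880 genes at an unadjusted p under 0.05. DESeq2 called 202 genes and the exact test of edgeR 125, none of them among the 8. For Nphs1 the Dapa mice had FPKM of 6.18 to 8.69 with a median of 7.49, close to the Case median of 7.18, and the log2 fold change was 0.08 (95% confidence interval -0.16 to 0.32). For Podxl it was 0.07 (-0.18 to 0.31), for Cd2ap 0.07 (-0.10 to 0.24), for Actn4 0.04 (-0.14 to 0.21) and for Vegfa 0.00 (-0.14 to 0.15). Those of Ptpro and Synpo were -0.13 (-0.39 to 0.13) and -0.09 (-0.81 to 0.64). All 8 intervals, with that of Wt1 below, lay inside a 2-fold change in either direction, and their widths give the size of change that these mice could not show.

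Wt1 had the smallest p of the 8 genes between Dapa and Case (unadjusted p = 0.0263, q = 0.333 from edgeR). Its FPKM in Dapa ran from 0.59 to 0.81 with a median of 0.77, and 5 of 6 Dapa mice lay above all Case mice. Its log2 fold change of 0.35 (interval 0.05 to 0.65) did not pass the adjustment under any of the alternatives, in which q was at least 0.215.

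Dapa was also compared with Ctrl, which asks how far the treated db/db kidneys stood from wild type. These results use the Ctrl mice of the first comparison again. The same 4 genes passed, with Nphs1, Podxl and Cd2ap higher and Vegfa lower in Dapa, against 29.1% of 14647 genes (14.2% higher and 14.9% lower). Over all genes the split was 2918 higher and 1488 lower with limma on log2(FPKM + 1), and 2461 and 1828 with upper quartile scaling. The log2 fold change was 0.67 for Nphs1 (SE 0.10, q = 0.00091 from edgeR), 0.46 for Podxl (SE 0.10, q = 0.0039), 0.35 for Cd2ap (SE 0.08, q = 0.00505) and -0.24 for Vegfa (SE 0.06, q = 0.0135). Each of these 4 calls was kept with any single mouse left out. All 6 Dapa mice lay above all Ctrl mice for Nphs1, for Podxl (49.9 to 66.4, median 56.8), for Cd2ap (35.4 to 44.4, median 39.4) and for Actn4 (41.7 to 49.9, median 43.7). Of all genes, 14.5% had groups without overlap in either direction.

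Actn4 did not pass in Dapa against Ctrl with edgeR (log2 fold change 0.14, q = 0.164) and passed on the FPKM scale (0.24 and q = 0.0229 with limma on log2(FPKM + 1)). Vegfa in Dapa had FPKM of 15.7 to 16.7 with a median of 15.9, and 4 of 6 mice lay below all Ctrl mice. On the FPKM scale its q was above 0.05. Ptpro in Dapa ran from 1.56 to 2.56 with a median of 2.16, and its log2 fold change was 0.16 (q = 0.343 from edgeR). For Ptpro 5 of 6 Dapa mice lay above all Ctrl mice and 1 lay below all of them. The log2 fold changes of Wt1 and Synpo were 0.09 and 0.10.

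The level of a gene relative to other podocyte markers within a mouse does not depend on the scaling of the library, and it was chosen after the values were seen and is given as a description with no test. Relative to the mean log2 CPM of 18 other podocyte markers, Nphs1 stood at -0.27 ± 0.12 in Ctrl, 0.22 ± 0.16 in Case and 0.29 ± 0.20 in Dapa on the log2 scale. Vegfa stood at 2.504 ± 0.10, 2.17 ± 0.18 and 2.17 ± 0.10 by the same measure.

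The other genes of the same structures were taken from 6 lists, which share some genes. The counts called in each list stand beside 13% of all genes called in Case against Ctrl and 29.1% in Dapa against Ctrl, and those of several lists are near or below these shares, among them 2 and 4 of 18 cytoskeleton genes in that order and 3 of 11 VEGF and angiopoietin genes in Dapa against Ctrl. Of 18 other podocyte markers, 5 passed in Case against Ctrl, 3 higher and 2 lower. Nes, which encodes the intermediate filament nestin, rose from 1.91 ± 0.25 FPKM in Ctrl to 3.39 ± 0.53 in Case (log2 fold change 0.74, SE 0.10, q = 0.00106 from edgeR). Cdkn1c, the cell cycle inhibitor p57 that marks mature podocytes, rose from 3.89 ± 0.73 to 7.70 ± 2.07 (log2 fold change 0.90, SE 0.18, q = 0.00688). Htra1, a secreted serine protease, fell from 25.5 ± 1.196 to 14.2 ± 4.58 (log2 fold change -0.93, SE 0.18, q = 0.00585). For these 3 genes the Case mice did not overlap the Ctrl mice, as for 8.43% of all genes tested. Col4a3, which encodes a chain of the glomerular basement membrane collagen, was lower (log2 fold change -0.57, q = 0.0186), and Npnt, which encodes the basement membrane protein nephronectin, was higher (0.68, q = 0.0497). The calls of Nes, Cdkn1c, Htra1 and Col4a3 were kept with each mouse left out, and that of Npnt was kept without Case replicate 4, 5 or 6 and lost without any other single mouse (q up to 0.117). The median over the list was 0.14. Of the 18, 8 passed in Dapa against Ctrl, 6 higher and 2 lower, and 5 of these 8 calls were kept without Ctrl replicate 1 or 3 or Dapa replicate 10.

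Of 15 other slit diaphragm genes tested among 18 listed, edgeR called 0 in Case against Ctrl, with 5 at an unadjusted p under 0.05, 2 called by DESeq2 and 1 by the exact test. Of all 14582 genes tested, 4188 were at such a p, DESeq2 called 2688 and the exact test 2239. The counts of this list and the next ones stand beside these. The median of the slit diaphragm list was 0.11, and Kirrel2, Kirrel3 and Trpc6 were too low to be tested. In Dapa against Ctrl 6 of the 15 passed, which are named after their values were seen. Kirrel, Tjp1, Crb2, Plekhh2 and Ddn were higher and Nck1 was lower. The calls of Tjp1 and Plekhh2 were kept with each mouse left out, and these were the only 2 of the 6 kept without Ctrl replicate 2 or 3 or Dapa replicate 12. Of 18 other foot process cytoskeleton genes, 2 passed in Case against Ctrl. Pdpn, which encodes podoplanin, was higher (log2 fold change 0.80, q = 0.0272 from edgeR), and Tln1, which encodes the integrin-binding protein talin, was lower (-0.30, q = 0.0484). Pdpn kept its call without 4 of the 11 mice (Ctrl replicate 4 and Case replicates 4, 5 and 6) and Tln1 without 2 of them (Case replicates 3 and 5), with q up to 0.0691 and 0.105 otherwise. In Dapa against Ctrl 4 genes of this list passed. These were Clic5 and Tln1, lower, and Pdlim2 and Pdpn, higher, and Clic5 and Pdlim2 are named here after their values were seen. The calls of Clic5 and Tln1 were kept with each mouse left out. Pdlim2 kept its call without Ctrl replicate 4 or Dapa replicate 7, 8 or 12, and Pdpn without Dapa replicate 7 or 9 (q up to 0.0848 and 0.101 otherwise).

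Among 15 adhesion and glomerular basement membrane genes, 3 passed in Case against Ctrl. Besides Npnt and Col4a3 this was Lama5, which encodes a laminin chain of the glomerular basement membrane (log2 fold change 0.45, SE 0.14, q = 0.0496 from edgeR). Its call was kept without Ctrl replicate 4 or Case replicate 2 and lost without any other single mouse (q up to 0.12), and with the term for the 7 libraries its q was 0.109. In Dapa against Ctrl the log2 fold change of Lama5 was 0.90 (q = 0.000532 from edgeR) and all 6 Dapa mice lay above all Ctrl mice. Of all genes tested there, 14.5% had groups without overlap in either direction. There 5 genes of the list passed, all higher, and besides Lama5 and Npnt these were Lamb2, Lamc1 and Agrn, named after their values were seen. Of these 5 calls that of Lamc1 was lost without Ctrl replicate 1, 2 or 5 or Dapa replicate 8, 10 or 11 (q up to 0.0653), and the other calls were kept with each mouse left out.

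Of 8 other podocyte transcription factors, edgeR called 0 in Case against Ctrl, with 0 at an unadjusted p under 0.05 and 0 by DESeq2 or the exact test. In Dapa against Ctrl 2 passed, both higher. Foxc1, named after its values were seen, had a log2 fold change of 0.96 (q = 0.046 from edgeR). Foxc1 kept its call without Ctrl replicate 4 or Dapa replicate 7 or 9 (q up to 0.0966 otherwise).

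Of 11 tested genes of the VEGF family, the angiopoietins and their receptors, edgeR called 0 in Case against Ctrl, with 1 at an unadjusted p under 0.05 (Angpt2), which DESeq2 and the exact test called. The receptor genes Kdr and Flt1 did not pass edgeR's quasi-likelihood test in any comparison. The log2 fold change of Kdr in Case against Ctrl was -0.17 (interval -0.46 to 0.13), and that of Flt1 was 0.00 (-0.32 to 0.33). In Dapa against Ctrl 3 genes passed, which are named after their values were seen. Angpt1, the ligand that stabilises vessels, was lower (log2 fold change -0.63, SE 0.13, q = 0.00491 from edgeR), its antagonist Angpt2 was higher (1.83, SE 0.40, q = 0.00567), and the co-receptor Nrp1 was lower (-0.44, SE 0.15, q = 0.0415). The calls of Angpt1 and Angpt2 were kept with each mouse left out, and that of Nrp1 without Ctrl replicate 3 or Dapa replicate 7 or 12 (q up to 0.088 otherwise). In Dapa against Case the 6 lists held 0 calls by edgeR. Among the 14573 genes of this comparison, 1880 had an unadjusted p below 0.05. The slit diaphragm list held 0 such genes, and the cytoskeleton, transcription factor and VEGF lists 1 each. The adhesion list held 4 of 15 and the podocyte markers 6 of 18. DESeq2 called 202 of all genes and the exact test 125. Within the lists each of these tools called 1 gene, Clic5. It is on both the podocyte and the cytoskeleton list and is named after its values were seen. Clic5 encodes an intracellular chloride channel protein that links ezrin to the foot process membrane. Its FPKM were 31.7 ± 4.36 in Ctrl (n = 5), 29.2 ± 4.51 in Case (n = 6) and 20.4 ± 3.53 in Dapa (n = 6). In Dapa against Case its log2 fold change was -0.54 (SE 0.12, q = 0.179 from edgeR's quasi-likelihood test, 0.0097 from DESeq2 and 0.0228 from the exact test).

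**Figure D4:**
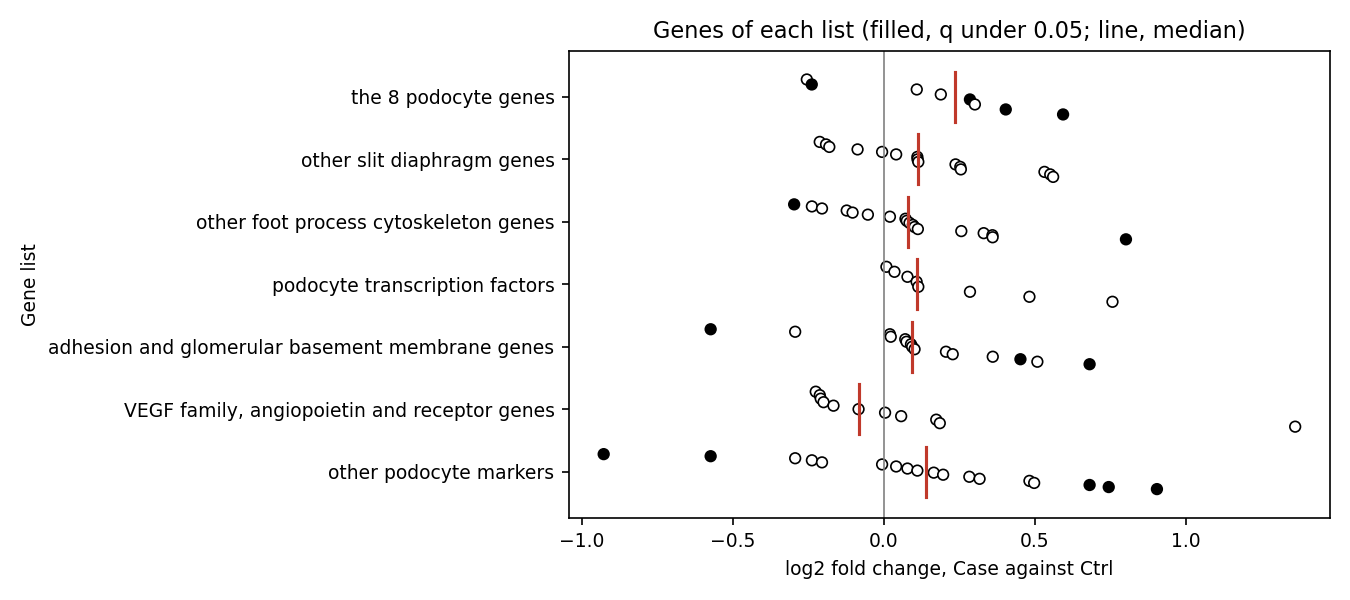
Log2 fold changes in Case against Ctrl of the 8 podocyte genes and of the genes of 6 other lists (filled points have a q under 0.05, vertical lines are medians). Calls lie on both sides of 0, and the list medians lie between -0.08 and 0.24.

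Markers of other kidney cells were read beside these results. Of all genes tested, 13% were called in Case against Ctrl and 29.1% in Dapa against Ctrl. In Case against Ctrl 4188 of 14582 genes had an unadjusted p under 0.05, DESeq2 called 2688 and the exact test 2239. The summed FPKM of the 18 other podocyte markers ran from 187 to 213 in Ctrl, from 167 to 236 in Case and from 164 to 235 in Dapa, so the groups overlapped. The 7 glomerular endothelial markers summed to 53.9 to 84.3 in Ctrl, 61.6 to 88.0 in Case and 68.4 to 125 in Dapa, and edgeR called 0 of them in Case against Ctrl (2 at an unadjusted p under 0.05, 1 by DESeq2 and 1 by the exact test). It again called 0 of them in Dapa against Ctrl, with 5 at an unadjusted p under 0.05, 4 called by DESeq2 and 3 by the exact test. Of all 14647 genes tested there, 6024 were at such a p, DESeq2 called 4902 and the exact test 4471. Of the 6 mesangial markers 1 passed in Case against Ctrl, Serpine2, which was higher (log2 fold change 1.31, q = 0.00129 from edgeR), and 4 passed in Dapa against Ctrl, 3 higher and 1 lower. The 4 markers of the parietal epithelium summed to 19.3 to 28.4 in Ctrl, 25.5 to 36.7 in Case and 29.6 to 43.7 in Dapa, with 0 called in Case against Ctrl (1 at an unadjusted p under 0.05, and 0 by DESeq2 and the exact test). Of the 4, 3 passed in Dapa against Ctrl, all higher, and 1 of these calls was kept without Ctrl replicate 1, 2 or 3.

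Tubular markers were read in the same way, beside the same shares of all genes (13% called in Case against Ctrl and 29.1% in Dapa against Ctrl). The 7 proximal tubule markers summed to 2780 to 3183 FPKM in Ctrl, 1649 to 2878 in Case and 1855 to 2600 in Dapa, and all 7 had a log2 fold change below 0 in Case against Ctrl, 3 of which passed (Lrp2, Slc27a2 and Miox). The call of Miox was lost without Ctrl replicate 1, 2, 3 or 5 or Case replicate 2 or 3. Of the 7, 6 passed in Dapa against Ctrl, all lower, and 3 of these calls were kept without Ctrl replicate 1, 2 or 3 or Dapa replicate 10, 11 or 12. The 6 markers of the distal tubule and collecting duct summed to 263 to 338 in Ctrl, 368 to 559 in Case and 482 to 700 in Dapa, and all 6 had a log2 fold change above 0 in Case against Ctrl, 5 of which passed. The calls of Calb1 and Slc4a1 were kept with each mouse left out, while those of Aqp2, Scnn1b and Atp6v1g3 were all lost without Ctrl replicate 3 or 5 and with the term for the 7 libraries (q = 0.116, 0.0856 and 0.0779 in that order). All 6 passed in Dapa against Ctrl and were higher, each also with any single mouse left out. Of the 4 markers of the thick ascending limb 1 passed, Egf, which was lower in Case (log2 fold change -0.50, q = 0.0239 from edgeR, and q = 0.0778 with the term for the 7 libraries), and its call was lost without Ctrl replicate 2 or 3. Of these 4 markers edgeR called 0 in Dapa against Ctrl (1 at an unadjusted p under 0.05, 0 by DESeq2 and 1 by the exact test). The part of these differences in the levels of Cd2ap, Actn4 and Vegfa was not tested. Of 7 macrophage and 5 fibroblast markers edgeR called 0 in Case against Ctrl (0 and 2 at an unadjusted p under 0.05, with 0 and 2 called by DESeq2 and by the exact test), and in Dapa against Ctrl it called 0 macrophage markers (0 at an unadjusted p under 0.05 and 0 by both other tools) and 2 fibroblast markers, Dcn and Pdgfra, both higher. The call of Dcn was lost without Ctrl replicate 1, 2 or 5 or Dapa replicate 8, 10 or 11 (q up to 0.0752). The 4 T and B cell markers were too low to be tested, at 0.23 to 2.07 FPKM in sum. Without Case replicate 3, the library with high macrophage markers, 3 of the 8 podocyte genes passed in Case against Ctrl.

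Within groups the 8 genes varied together only in part. After each group's mean was subtracted, Pearson's r of log2 CPM over the 17 mice ran from -0.29 to 0.60 over the 28 pairs, with a median of 0.07 and 18 pairs above 0. The highest r was that of Podxl and Ptpro (0.60), the pair of the apical surface, followed by Wt1 and Synpo (0.55). Nphs1 had its highest r with Ptpro (0.40) and Podxl (0.39). These values are descriptive, since all genes of a mouse share its library and tissue piece.

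The 10 genes whose within-group pattern was most like that of Nphs1 were Ccdc106 (r = 0.88), Armcx3 (0.79), Kcnab2 (0.77), Gm37499 (0.75), Cd40 (0.74), Rbbp7 (0.74), Atp6v0d2 (0.74), Card10 (0.73), Manba (0.73) and Zfp174 (0.72), over 17 mice and among 15059 other genes. The symbol Ccdc106 stands at 2 entries of the table, and the one meant here had a mean of 0.63 FPKM. None of the 10 was in the podocyte lists, and Nes was the podocyte marker nearest to Nphs1 (r = 0.63, rank 67). With Spearman's rho 4 of the 10 genes were again among the 10 nearest, and without subtraction of the group means 0 were.

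The bases before the RefSeq start site are shown for 2 of the genes that passed, 1 higher and 1 lower in db/db kidneys, so that the sequence next to each start can be read beside its change. They are 250 bases of each promoter from RefSeq (GRCm38.p6), 5′ to 3′ on the strand of the gene, which is the minus strand for both. Capitals mark 2 patterns on either strand, GNGNGGGNG, which covers sites of the WT1 and EGR zinc finger type, and the GC box GGGCGG of the SP1 type. The Cd2ap sequence lies at chr17:42876425-42876674 and the Vegfa sequence at chr17:46032378-46032627. GENCODE M21 places the outer end of Cd2ap farther upstream, at 42876665, through a transcript with a retained intron, so that 241 of the 250 bases shown for Cd2ap lie inside that gene model, whereas 0 of those shown for Vegfa lie inside its model.
Cd2ap: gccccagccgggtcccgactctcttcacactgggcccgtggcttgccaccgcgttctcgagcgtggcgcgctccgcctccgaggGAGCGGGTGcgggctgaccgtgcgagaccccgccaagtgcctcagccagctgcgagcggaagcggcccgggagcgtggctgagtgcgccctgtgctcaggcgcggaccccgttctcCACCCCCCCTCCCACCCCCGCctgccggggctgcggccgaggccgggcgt
Vegfa: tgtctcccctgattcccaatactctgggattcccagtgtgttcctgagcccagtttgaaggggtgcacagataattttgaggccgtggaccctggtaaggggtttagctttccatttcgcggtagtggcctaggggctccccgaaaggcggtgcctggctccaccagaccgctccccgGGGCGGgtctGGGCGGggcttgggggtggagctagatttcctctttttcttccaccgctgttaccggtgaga

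The Cd2ap sequence held 6 overlapping or separate matches to GNGNGGGNG and 0 to GGGCGG, and the Vegfa sequence 0 and 2. Of 32851 promoter sequences of the same length, 35.8% held GNGNGGGNG and 32.7% held GGGCGG. The Cd2ap sequence was 76.4% G and C and the Vegfa sequence 59.2%, and the median of all promoters was 52.4%. The core of the hypoxia response element, ACGTG, was in neither printed sequence and in 16.6% of all promoters, and the LMX1B type TAATTA was in neither and in 4.84%. RefSeq gives Vegfa another promoter inside the gene, at chr17:46025164-46025413, which is not printed and held 1 match each to ACGTG, GNGNGGGNG and GGGCGG. Promoters of Nphs1, Actn4 and Ptpro were matched as well and are not printed. They held 5, 4 and 4 matches to GNGNGGGNG and 0, 3 and 0 to GGGCGG in that order. Actn4 and Ptpro, with matches to the first pattern, did not pass with edgeR in any comparison. A match is a description of the letters, not a site. Podxl, Wt1 and Synpo were not matched.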

How the data were processed

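Whole-kidney RNA of 5 Ctrl, 6 Case and 6 Dapa mice was measured, grouped by the sample labels. The authors prepared stranded libraries after oligo(dT) selection, aligned reads to mm10 with HISAT2 and deposited a Stringtie read count per gene. The authors also deposited FPKM, which followed count, library total and gene length within 0.0883% and held no TMM factor. Of 22561 genes, 3 with entries split over 2 lines were not used. In 7 libraries (Ctrl replicates 1, 3 and 4, Case replicate 1 and Dapa replicates 10, 11 and 12) the FPKM of these 3 genes did not match their counts within 0.5%. These libraries were treated as a possible batch.

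Counts were compared with edgeR 4.0.16 in R 4.3.3 (TMM, filterByExpr, quasi-likelihood test, Benjamini-Hochberg q under 0.05), each comparison on its own 2 groups. Intervals are 95%. The tests were repeated with DESeq2 1.42.0, with the exact test of edgeR, with limma 3.58.1 on log2(FPKM + 1) and log2(FPKM + 0.1), and with other scalings and filters, 1 fit of all groups, a fold above 2, a term for the 7 libraries, the replicate block, and each mouse left out. On simulated data with 14582 genes, 98 of 100 genes changed 4-fold and 27 of 100 changed 1.5-fold were recovered in Case against Ctrl, with 15 false calls. No libraries of a group were duplicates (lowest chi-square per gene 12.0). p-values set a difference between groups against the variation between mice.

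Genes named were the 8 members, called genes of the other lists (up to 6 per list, by p, in Case against Ctrl or Dapa against Case) and the 10 genes nearest to Nphs1. Other genes, those called only in Dapa against Ctrl or by another tool and the receptors Kdr and Flt1, were named after their values were seen. Some items are not reported here. The members and lists were chosen with earlier results of these data known. The urine albumin-creatinine ratio was not used here, since its mice could not be matched to these libraries by name. Summaries and figures used Python 3.11.15, numpy 2.4.6, pandas 2.3.3 and matplotlib 3.10.9.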

Additional observations from a re-analysis of the deposited data

How the results depend on the processing

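In Case against Ctrl, 4 of the 8 podocyte genes passed, and with DESeq2, other scalings and other tools between 3 and 5 did. This fell to 2 without a filter on low counts, to 1 once the 7 libraries that may form a batch had their own term and to 1 with the replicate block (Nphs1 in both), and it ranged from 1 to 4 with each mouse left out. With a fold above 2 required, 0 passed in Case against Ctrl and 0 in Dapa against Ctrl, where 4 passed with any single mouse left out. In Dapa against Case 0 passed under every alternative run. The replicate numbers did not pair the mice (correlations of deviations from -0.059 to -0.013), no Ctrl mouse was nearest to its own number, and with the block the calls over all genes fell from 1895 to 707. Over all genes the term gave 1219, the fold rule 553 and the left-out mice 1002 to 2154, and in Dapa against Ctrl the fold rule gave 1051 against 4260. Directions in Dapa against Case turned for 3 genes that did not pass. With single mice left out Podxl ranged from -0.0033 to 0.12, Vegfa from -0.013 to 0.0252 and Synpo from -0.33 to 0.0514 (0.022 with the term), and in Dapa against Ctrl Synpo ranged from -0.15 to 0.24. The 1.5-fold changes in simulated data were recovered in 27 to 37 of 100 genes, with 5 to 15 false calls per comparison. The changed genes were drawn at random from the genes with enough counts. The recovery of genes with a spread as low as that of Vegfa or Cd2ap was not measured.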
